A study of Homo sapiens with 14 samples.

Results

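Histone genes, the replication-dependent clusters and the separately encoded variant and linker genes, were followed in IMR90 cells during depletion of mitochondrial DNA. They were taken as every protein-coding gene of the count table whose symbol began with HIST1H to HIST4H, H1F, H2AF or H3F, which gave 86 genes of 27142. Of these, 70 were replication-dependent genes, with 55 on chromosome 6, 14 on chromosome 1 and 1 on chromosome 12, and 16 were variant or linker genes. Another 5 symbols matched the pattern but were not protein-coding and were not used. IMR90 is an established, unmodified line of human fetal lung fibroblasts. The cells were left untreated, with water as the vehicle (2 libraries), or received 20 uM 2′,3′-dideoxycytidine (ddC) for 24, 48, 72 or 96 h (3 libraries each). ddC is a cytidine analog that ends DNA chains and blocks the mitochondrial DNA polymerase. The labels give the untreated libraries both as the start and as the 4-day point of the series, so whether their culture time matched that of the 96 h cells cannot be told apart from ddC. Libraries were made from polyadenylated RNA with a stranded kit.

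Replication-dependent histones supply new chromatin in S phase. Their mRNAs normally end in a stem-loop in place of a poly(A) tail, and stem-loop binding protein carries them through processing and translation. Variant histones replace them in particular chromatin outside S phase, and linker histones of the H1 family bind the DNA between nucleosomes; most variant genes make ordinary polyadenylated mRNAs, and H2AFX makes a stem-loop form as well. A library of polyadenylated RNA therefore sees the replication-dependent genes, and H2AFX in part, only through the transcripts that carry a tail, and the values below are no measure of their total mRNA. In bulk RNA, fewer cells in S phase and less histone mRNA per cell cannot be told apart.

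The stem-loop is what sets the replication-dependent genes apart in sequence, so the sites found in genes with enough counts to test are shown. A 16-base match, with a stem of 6 bases on each side of a loop of 4, was searched for on the sense strand of GENCODE transcripts. It was found in 33 of the 86 histone genes, 32 of them replication-dependent and the other H2AFX, and in 44 of 57133 gene names in all (0.077%). The models of the remaining histone genes often end with the coding part, and no match says only that these letters are not in the model. Capitals mark the 16 bases, with 5 flanking bases on each side. HIST1H2BK and HIST1H1C, which also had enough counts, had no match.
HIST2H2BE: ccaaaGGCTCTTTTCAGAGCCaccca
HIST1H2AC: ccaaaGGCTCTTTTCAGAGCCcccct
HIST1H2BD: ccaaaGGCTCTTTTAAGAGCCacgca
HIST1H2BH: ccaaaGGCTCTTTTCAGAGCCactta
HIST3H2A: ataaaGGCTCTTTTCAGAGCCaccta
HIST1H2BC: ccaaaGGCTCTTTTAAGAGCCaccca
HIST1H2AG: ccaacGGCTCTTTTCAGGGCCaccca
H2AFX: acaaaGGCCCTTTTAAGGGCCaccac
In these genes the transcript runs on past the stem-loop. A protein-coding model had 1761 more bases in HIST1H2AG, 1729 in HIST2H2BE, 1640 in HIST1H2BH, 1114 in HIST1H2AC, 390 in HIST3H2A, 116 in HIST1H2BC and 39 in HIST1H2BD. H2AFX, the variant that marks DNA breaks once phosphorylated, had 1044. Among replication-dependent genes with enough counts to test, 6 of 9 had a site followed by at least 100 bases, and 17 of the 61 others did. Among genes in which a site was found these were 6 of 7 and 17 of 25, a smaller contrast. The difference was not tested.

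The promoters share features that the choice of genes did not use. RefSeq promoter windows on GRCh38.p14, from 250 bases before to 50 after the start, were matched to 79 of the 86 genes and searched on both strands. The CCAAT box (CCAAT) stood in 84.6% of replication-dependent promoters (55 of 65), in 78.6% of variant and linker promoters (11 of 14) and in 34.6% of all 35116 promoters. The letters TATAAA stood in 66.2% of replication-dependent, 28.6% of variant and linker and 11.5% of all promoters. The H1 box (AAACACA), known from linker histone promoters, stood in 6 of the 6 replication-dependent H1 promoters, in 1 of 3 variant H1 promoters and in 5.64% of all. The linker gene H1F0 had no promoter entry and was not searched. Some genes lie head to head, such as HIST1H2BC (minus strand, up to 26124132 on hg19) and HIST1H2AC (plus strand, from 26124373). The windows of such pairs can share bases, so the promoters are not all separate observations. The windows of the replication-dependent linker gene and of the variant gene with the most reads are shown, with matches in capitals; in neither did matches overlap.
HIST1H1C, chr6:26056421-26056720, minus strand: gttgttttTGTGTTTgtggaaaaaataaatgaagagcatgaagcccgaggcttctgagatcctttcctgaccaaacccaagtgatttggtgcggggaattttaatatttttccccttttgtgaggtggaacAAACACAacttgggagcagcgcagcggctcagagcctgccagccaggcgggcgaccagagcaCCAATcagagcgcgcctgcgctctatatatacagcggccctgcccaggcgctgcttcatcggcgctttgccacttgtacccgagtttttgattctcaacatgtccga
H3F3B, chr17:75779730-75780029, minus strand: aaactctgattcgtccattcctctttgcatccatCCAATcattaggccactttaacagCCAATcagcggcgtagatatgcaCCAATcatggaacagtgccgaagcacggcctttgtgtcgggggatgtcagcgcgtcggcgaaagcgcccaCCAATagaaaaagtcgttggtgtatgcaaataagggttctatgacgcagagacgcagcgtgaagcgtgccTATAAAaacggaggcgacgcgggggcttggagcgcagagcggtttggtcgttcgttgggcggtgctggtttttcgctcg
In HIST1H1C the CCAAT box began 57 bases before the start, with an H1 box 119 bases before it and another, on the opposite strand, 242 bases before it. H3F3B held CCAAT boxes at 216, 192, 169 and 99 bases before the start, followed by TATAAA at 29 bases.

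Nearly all histone reads came from variant and linker genes. Summed over the 16 variant and linker genes, libraries held between 1237 and 1514 CPM (counts scaled to the library total, after TMM scaling), and summed over the 70 replication-dependent genes between 42.2 and 49.7 CPM. Replication-dependent genes made up 3.15% of histone CPM in untreated cells, and 3.13%, 3.21%, 3.27% and 3.45% at 24, 48, 72 and 96 h of ddC. Per kilobase of the listed gene length, that share was 7.12% ± 0.05 in untreated cells (SD, n = 2) and 7.03% ± 0.23, 7.20% ± 0.55, 7.36% ± 0.23 and 7.55% ± 0.41 at the 4 times (n = 3 each). Library totals were 9398703 to 12147402 counts.

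A filter on low counts (edgeR's filterByExpr) left 13371 genes, among them 9 of the 70 replication-dependent and 11 of the 16 variant and linker genes. The 9 were 5 of 18 H2B genes, 3 of 17 H2A genes and 1 of 6 H1 genes, with 0 of 14 H3 and 0 of 15 H4 genes. Of the other 61, 50 had some counts and 11 had 0 counts in every library. HIST1H2BG had the most, with 89 counts over 14 libraries, and the 61 together came to 6.23 to 8.06 CPM per library. The genes at 0 included the near-identical copies HIST2H2AA3 and HIST2H2AA4, HIST2H4A and HIST2H4B, and HIST2H3A, HIST2H3C and HIST2H3D, which are uncertain because the handling of reads with several matches is not stated. A count of 0 in a library allows up to 3 counts, by counting error alone. The 5 variant and linker genes at 0 were H1FNT, H1FOO, H2AFB1, H2AFB2 and H2AFB3, genes known from the testis and the oocyte.

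By CPM per kilobase, H2AFZ, the H2A.Z gene, stood first with a mean of 386.2 (341.4 to 421.8 over 14 libraries) and overlapped with no other gene. H3F3B, which encodes H3.3, followed at 128.0, then H2AFX at 101.4 and H2AFY, the macroH2A1 gene, at 79.0; each of these overlapped with its neighbour. The linker genes H1FX at 48.9 and H1F0 at 43.5 overlapped with each other, and H2AFV, the second H2A.Z gene, stood alone at 27.1. The highest replication-dependent gene was HIST1H2BK at 12.11, followed by HIST1H1C at 9.90 and HIST1H2AC at 9.55. These overlapped in a chain with the macroH2A2 gene H2AFY2 at 9.53, H3F3C at 7.74 and H2AFJ at 7.69. HIST1H2BH (5.23), HIST1H2BD (4.79), HIST2H2BE (3.45), HIST3H2A (2.67), HIST1H2BC (1.92) and HIST1H2AG (1.46) came below, each overlapping with the next. The H3.3 gene H3F3A came last at 1.37, but its row and that of the pseudogene H3F3AP4 lie on the same place and held equal counts in all 14 libraries (231 in all), so its level and changes are uncertain. The listed lengths are short for some genes, 422 bases for HIST1H2BH and 495 for HIST1H2AG, where GENCODE models have 2060 and 2250; whether reads past the listed end were lost was not tested.

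**Figure D1:**
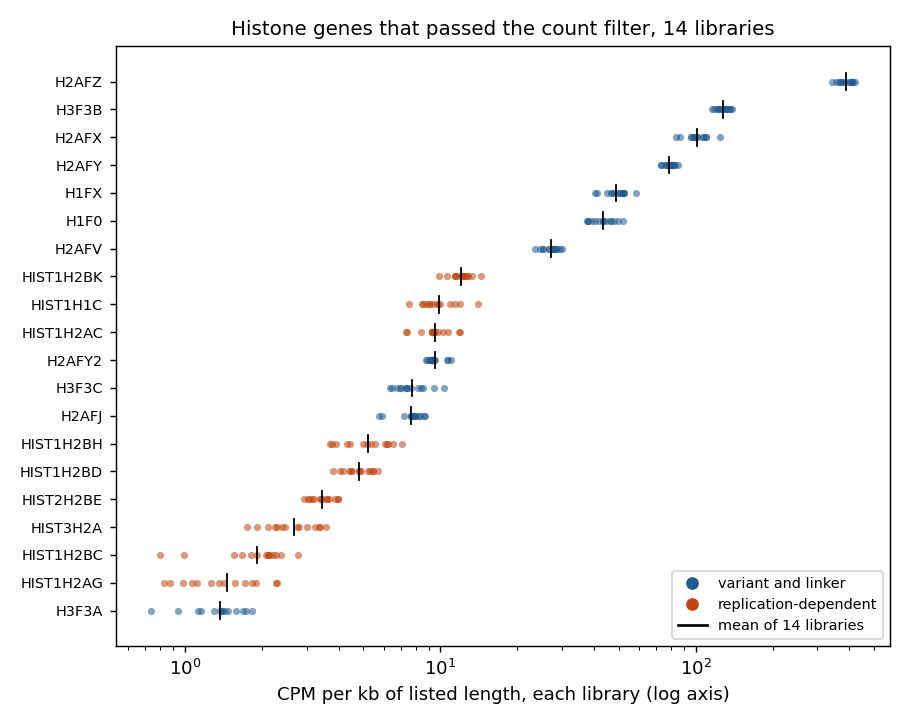
CPM per kilobase of listed length (horizontal log axis) of the 20 histone genes that passed the count filter, with a point for each of the 14 libraries and a bar at the mean, blue for variant and linker and orange for replication-dependent genes. H2AFZ stands apart at a mean of 386.2, and the replication-dependent genes lie at or below 12.11, beside H2AFY2, H3F3C, H2AFJ and H3F3A.

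No replication-dependent gene passed the test at any time of ddC, by edgeR's quasi-likelihood test with Benjamini-Hochberg adjustment over 13371 genes. At 96 h against untreated cells 0 of 9 passed, against 5.68% of all tested genes, and 0 had an unadjusted p under 0.05, where 19.8% of all genes did; DESeq2 and limma-voom also called 0. At 72 h 0 of 9 passed (0.179% of all genes), at 48 h 0 of 9 (0.00748%) and at 24 h 0 of 9 (0% of all genes), with 0 at an unadjusted p under 0.05 each time, where 7.24%, 6.01% and 3.42% of all genes were. Between ddC times, 0 of 9 and 0 of the 11 variant and linker genes passed at 96 h against 24 h (3.2% of all genes), at 96 h against 72 h (0.516%), at 72 h against 48 h (0.0598%) and at 48 h against 24 h (0%). Among the 9, HIST1H1C at 48 h against 24 h and HIST1H2BH at 96 h against 72 h had an unadjusted p under 0.05 by edgeR. Among the 11, H1F0, H2AFV, H2AFZ and H3F3B did at 96 h against 24 h, and H1F0 at 72 h against 48 h. The share of all genes under that p is not given for these 4 comparisons, so no excess can be read from them. The 9 passed the filter partly through their own levels and do not stand for all 70. Their median log2 fold change at 96 h was -0.12, beside -0.0038 over all genes, and 6 of 9 lay below 0, where 50.8% of all genes did.

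HIST1H2BK, an H2B gene known to have a polyadenylated transcript (chr6:27106072-27114637 on hg19, minus strand), had 11.1 and 10.7 CPM in untreated cells. At 24 h it had 8.28, 10.2 and 12.09 CPM, at 48 h 10.4, 9.50 and 9.63, at 72 h 10.2, 9.55 and 9.97, and at 96 h 8.90, 10.4 and 10.8 CPM. The 24 h libraries lay on both sides of the untreated values, those at 48 and 72 h below them, and at 96 h the highest library lay between them. The log2 fold change at 96 h over untreated was -0.12 ± 0.14 (SE), a change of -8.01% with a 95% interval from -25.2% to 13.1%. Its opposite-strand neighbour HIST1H4I, which overlaps it over 369 bases, held 1.05% of its counts.

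HIST2H2BE, an H2B gene with 1729 bases past its stem-loop, had 8.58 and 7.14 CPM in untreated cells, 6.81, 7.58 and 7.50 at 24 h, 6.72, 7.97 and 6.96 at 48 h, 6.50, 7.67 and 8.15 at 72 h, and 8.81, 7.92 and 8.83 at 96 h. All 3 libraries at 96 h lay above all 3 at 24 h, while the untreated libraries overlapped with every time. The log2 fold change was 0.12 ± 0.15 at 96 h over untreated and 0.22 ± 0.13 at 96 h over 24 h, with an adjusted p of 0.471 by edgeR in the second.

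HIST1H1C, which encodes the linker histone H1.2 (chr6:26055968-26056699 on hg19, minus strand), had 6.59 and 7.93 CPM in untreated cells, 6.39, 5.51 and 7.15 at 24 h, 10.2, 8.74 and 7.29 at 48 h, 7.08, 6.65 and 8.32 at 72 h, and 6.82, 6.18 and 6.22 at 96 h. The 3 libraries at 48 h lay above the 3 at 24 h. That difference, 0.46 ± 0.15 on the log2 scale, did not pass (edgeR adjusted p = 0.9997, unadjusted 0.0073). At 96 h against untreated it was -0.18 ± 0.17, with an interval from -31.2% to 13.3%.

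HIST1H2AC, an H2A gene, had 5.03 and 4.58 CPM in untreated cells, 3.98, 5.33 and 5.03 at 24 h, 5.15, 6.45 and 5.18 at 48 h, 5.02, 4.01 and 5.55 at 72 h, and 6.48, 5.05 and 5.80 at 96 h. Its libraries at 96 h and at 48 h lay above both untreated libraries, the lowest at 5.05 CPM beside an untreated 5.03, and the log2 fold change at 96 h was 0.26 ± 0.19 (edgeR adjusted p = 0.471). HIST1H2BD, an H2B gene, had 3.64 and 3.61 CPM in untreated cells, 4.30, 3.88 and 4.41 at 24 h, 4.23, 4.41 and 3.97 at 48 h, 3.29, 3.07 and 3.90 at 72 h, and 3.37, 3.57 and 4.62 at 96 h. It lay above both untreated libraries at 24 and 48 h and overlapped with them at 72 and 96 h, with a log2 fold change of 0.09 ± 0.20 at 96 h.

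HIST1H2BH, also an H2B gene, rested on 18 to 35 counts a library. It had 1.82 and 2.56 CPM in untreated cells, 2.62, 2.26 and 1.59 at 24 h, 2.76, 1.87 and 2.19 at 48 h, 2.63, 2.98 and 2.34 at 72 h, and 1.56, 1.65 and 2.10 at 96 h. The libraries at 96 h lay below those at 72 h, by 0.58 ± 0.25 on the log2 scale, which did not pass (edgeR adjusted p = 0.377), and overlapped with the untreated ones. HIST3H2A, HIST1H2BC and HIST1H2AG had 4 to 20 counts a library, and at 96 h against untreated their log2 fold changes lay between -0.27 and -0.07 with intervals that together ran from -56.3% to 81.5%.

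Among the tested histone genes, H1F0 alone passed the test. It encodes H1.0, the linker histone whose polyadenylated mRNA accumulates in cells that leave the cycle (chr22:38201114-38203443 on hg19, plus strand). It had 121.1 and 115.5 CPM in untreated cells, 101.1, 103.6 and 108.9 at 24 h, 111.1, 101.2 and 107.2 at 48 h, 88.4, 88.3 and 97.2 at 72 h, and 91.5, 93.5 and 87.6 at 96 h. Every ddC library lay below both untreated libraries, and all 3 at 96 h lay below all 3 at 24 h.

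H1F0 fell at 96 h against untreated cells, by 0.38 ± 0.07 on the log2 scale (a change of -23.2%, interval -30.1% to -15.6%), with an adjusted p of 0.00101 by edgeR. It fell at 72 h by 0.37 ± 0.07 (edgeR adjusted p = 0.0166). At 24 h the log2 fold change was -0.18 ± 0.07 (edgeR adjusted p = 0.9991, unadjusted 0.0133) and at 48 h -0.15 ± 0.07 (edgeR adjusted p = 0.827, unadjusted 0.0305). Between ddC times it was -0.20 ± 0.06 at 96 h over 24 h (edgeR adjusted p = 0.0686) and -0.22 ± 0.06 at 72 h over 48 h (edgeR adjusted p = 0.339), neither of which passed. H1F0 was thus 1 of 11 tested variant and linker genes called lower at 72 h, beside 0.0374% of all genes, and 1 of 11 at 96 h, beside 2.11%.

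The H1F0 call at 72 h did not hold without 72 h replicate 1 (adjusted p = 0.0715 by edgeR), 72 h replicate 2 (0.0588), untreated replicate 1 (0.346) or untreated replicate 2 (0.259). The call at 96 h held without each library in turn, with adjusted p up to 0.0294. Reads on the strand opposite to abundant genes moved with the groups: they came to 0.731 and 0.751 per 1000 counts of those genes in untreated libraries and 0.944 to 0.994 at 96 h, with 48 h replicate 3 and 72 h replicates 2 and 3 also above 0.94. With that index as a covariate the change at 96 h was -0.37 with an adjusted p of 0.185 by edgeR, and with the libraries divided into 2 sets at its widest gap it was -0.42 with an adjusted p of 0.0277. In the higher set, H1F0 had 107.2 CPM in 48 h replicate 3, 88.3 and 97.2 in 72 h replicates 2 and 3, and 87.6 to 93.5 in the 96 h libraries. In the lower set it had 115.5 and 121.1 CPM in untreated libraries, 101.1 to 108.9 in the 24 h libraries, 111.1 and 101.2 in 48 h replicates 1 and 2, and 88.4 in 72 h replicate 1. The index of 72 h replicate 1 was 0.859, between 0.774 in 48 h replicate 1 and 0.944 in 96 h replicate 2, with a similar gap on each side. Its place in the lower set was thus not clear-cut, and a fit with it in the higher set was not run. No 96 h library is in the lower set and no untreated library in the higher, so 96 h and untreated libraries cannot be compared within a set.

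The other linker variant, H1FX, encodes H1X. It had 70.9, 71.8 and 79.0 CPM at 96 h and 77.4 and 74.4 CPM in untreated cells, which overlap, and a log2 fold change of -0.04 ± 0.11. Its lowest libraries were 24 h replicate 1 (60.4 CPM) and 72 h replicate 1 (61.6), and its highest was 48 h replicate 1 (87.8).

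**Figure D2:**
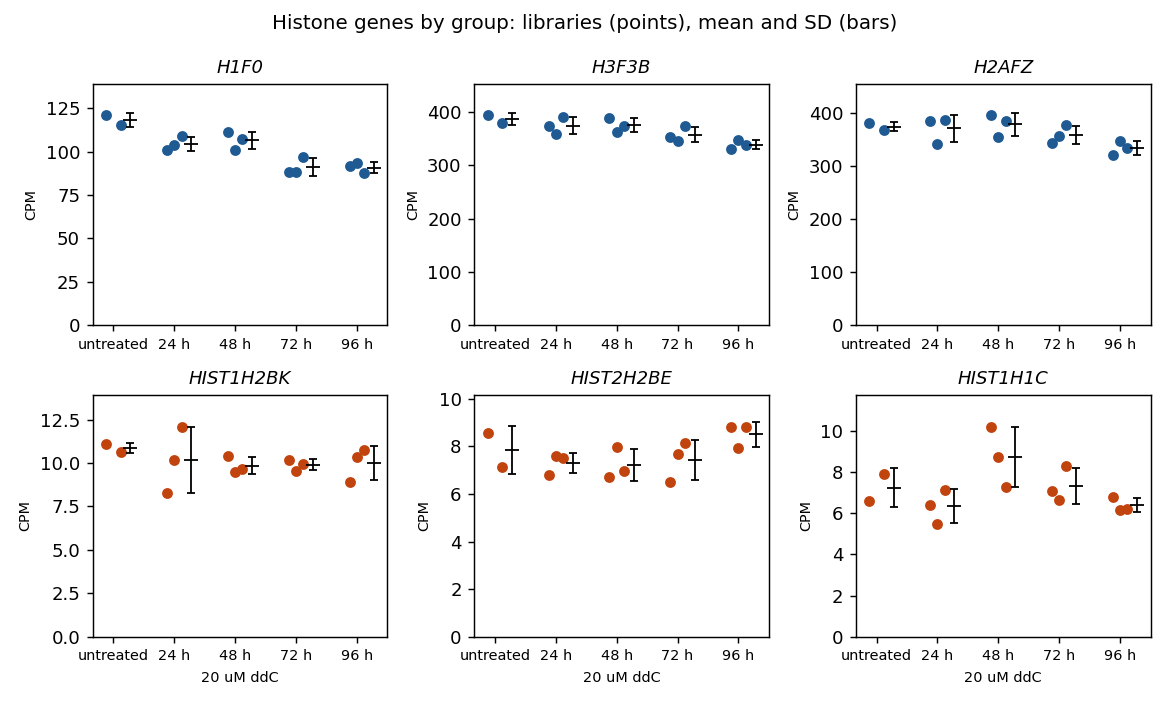
CPM of 3 variant and linker genes (blue, top) and 3 replication-dependent genes (orange, bottom) in untreated cells and after 24, 48, 72 and 96 h of 20 uM ddC; points are libraries, bars the mean and SD (n = 2 untreated, n = 3 at each time). H1F0 lies at 87.6 to 97.2 CPM at 72 and 96 h, below the untreated 115.5 and 121.1, while the 3 replication-dependent genes overlap with untreated cells at 96 h.

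None of the abundant H3 and H2A variants passed the test at 96 h, and their libraries stood in different places against the untreated ones. H3F3B had 394.6 and 379.4 CPM in untreated cells, 374.8, 358.6 and 390.6 at 24 h, 389.9, 363.5 and 373.9 at 48 h, 354.0, 346.6 and 373.3 at 72 h, and 331.4, 348.1 and 338.1 at 96 h. Its libraries at 96 h and at 72 h lay below both untreated ones, and those at 96 h also below those at 24 h. The log2 fold change at 96 h over untreated was -0.19 ± 0.06 (edgeR adjusted p = 0.0522), and 10 of 24 other analyses of the same gene put it past the threshold, with adjusted p from 0.00043 to 0.602.

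H2AFZ had 381.1 and 368.4 CPM in untreated cells, 385.0, 341.6 and 387.3 at 24 h, 396.5, 354.8 and 386.2 at 48 h, 343.9, 357.2 and 377.4 at 72 h, and 320.9, 348.2 and 333.9 at 96 h. Its libraries at 96 h lay below both untreated ones, which those at 24, 48 and 72 h overlapped. The log2 fold change at 96 h was -0.16 ± 0.07 (edgeR adjusted p = 0.160). H2AFV had 104.6 and 112.0 CPM in untreated cells, 110.3, 103.5 and 106.3 at 24 h, 104.0, 94.99 and 104.7 at 48 h, 99.6, 107.6 and 94.5 at 72 h, and 92.2, 100.2 and 88.0 at 96 h. Its libraries at 96 h lay below both the untreated and the 24 h ones, with log2 fold changes of -0.21 ± 0.07 (edgeR adjusted p = 0.0894) and -0.19 ± 0.07 (0.127).

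H2AFX had 161.6 and 152.2 CPM in untreated cells, 138.3, 157.7 and 169.8 at 24 h, 198.3, 175.0 and 160.2 at 48 h, 152.8, 156.6 and 169.3 at 72 h, and 132.8, 156.7 and 175.1 at 96 h. Its 96 h libraries spread on both sides of the untreated ones, and the log2 fold change there was -0.02 ± 0.11. H2AFY had 157.6 and 153.8 CPM in untreated cells, 149.7, 148.8 and 149.3 at 24 h, 161.9, 155.0 and 153.6 at 48 h, 144.3, 145.2 and 156.1 at 72 h, and 139.9, 150.9 and 139.2 at 96 h. It was below both untreated libraries at 24 h and at 96 h, by a log2 fold change of -0.12 ± 0.06 at 96 h (edgeR adjusted p = 0.277).

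The less abundant variants gave wider errors. H3F3C, an H3.3-like gene found in primates, had 7.77, 7.13 and 7.32 CPM at 96 h and 9.97 and 8.99 CPM in untreated cells, with no overlap, and a log2 fold change of -0.36 ± 0.16 (edgeR adjusted p = 0.216). H2AFY2 had 19.8, 20.1 and 20.5 CPM at 96 h and 23.1 and 20.6 CPM in untreated cells, and H2AFJ, an H2A variant gene, 29.02, 28.3 and 29.1 CPM at 96 h and 28.7 and 28.2 CPM in untreated cells. H3F3A had 9 to 22 counts a library and a log2 fold change of -0.42 ± 0.35 at 96 h.

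Across the class, 10 of the 11 tested variant and linker genes had a log2 fold change below 0 at 96 h over untreated, where 50.8% of all genes did. In 7 of the 11 every 96 h library lay below every untreated library, beside 19.8% of all genes, and 5 had an unadjusted p under 0.05 in that direction, beside 8.97%. Of the 9 tested replication-dependent genes, 0 were separated in that direction and 1 in the other, beside 20.6%. Most of these 9 had far lower counts and wider errors, with a median SE of 0.20 beside 0.10 in the 11, which makes separation harder to reach. Their median log2 fold change at 96 h was -0.12, beside -0.16 in the 11. The median log2 fold change of the 11 was -0.05 at 24 h, -0.04 at 48 h, -0.11 at 72 h and -0.16 at 96 h; these comparisons share the untreated libraries. The difference between the classes was not tested.

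**Figure D3:**
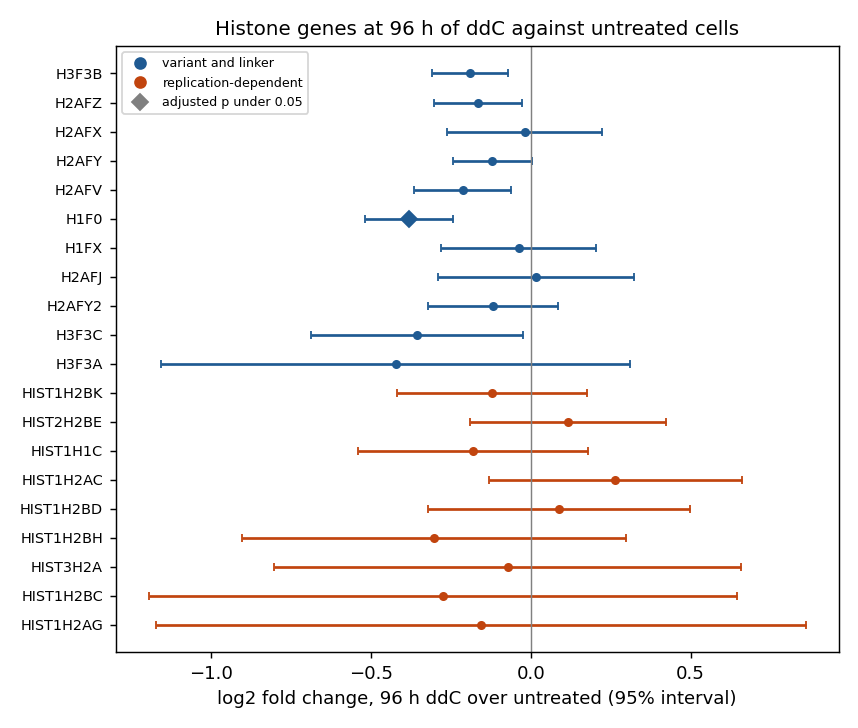
Log2 fold change at 96 h of ddC over untreated cells with its 95% interval for the 20 tested histone genes, variant and linker genes (blue) above replication-dependent genes (orange), each ordered by mean CPM; the diamond marks an adjusted p under 0.05. H1F0, at -0.38, is the gene past the threshold. The intervals of the replication-dependent genes all span 0, as do those of H1FX, H2AFJ, H2AFX, H2AFY, H2AFY2 and H3F3A. The replication-dependent genes have wider errors (median SE 0.20, beside 0.10 in variant and linker genes).

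Variant and linker genes came to 1438 ± 32.6 CPM in untreated cells (SD, n = 2) and 1392 ± 51.4, 1436 ± 68.9, 1341 ± 53.7 and 1287 ± 45.8 CPM at 24, 48, 72 and 96 h (n = 3 each). The 96 h libraries held 86.0% to 92.2% of the untreated mean, all below the untreated 98.4% and 101.6%. Replication-dependent genes came to 46.7 ± 1.12 CPM in untreated cells and 44.9 ± 2.91, 47.5 ± 3.24, 45.3 ± 1.68 and 45.9 ± 2.40 CPM at the 4 times. Their 96 h libraries held 94.99% to 104.2% of the untreated mean, on both sides of the untreated 98.3% and 101.7%. By family, replication-dependent H2B genes held 26.2 ± 2.31 CPM at 96 h and 27.1 ± 1.29 CPM in untreated cells, H2A genes 9.90 ± 0.27 and 9.26 ± 1.00 CPM, H1 genes 6.81 ± 0.54 and 7.39 ± 1.14 CPM, H3 genes 2.05 ± 0.68 and 1.66 ± 0.14 CPM, and H4 genes 0.97 ± 0.12 and 1.31 ± 0.11 CPM. The H3 and H4 sums rest on 6 to 31 counts a library.

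Most of the S-phase genes measured alongside fell. Of a list of 20 genes of DNA replication, 13 fell at 96 h against untreated cells by edgeR and 0 rose, beside 2.11% of all genes called lower, with a median log2 fold change of -0.44. The 13 were the helicase subunits MCM2 to MCM7, CDC45, CDC6, FEN1, POLA1, RRM2, UHRF1 and CCNE2. PCNA, GINS1, GINS2, TK1 and TYMS were among those that did not pass. TK1 had a mean of 153.4 CPM at 96 h and 144.2 CPM in untreated cells, and TYMS 183.3 and 181.6 CPM. Of the 20, 18 had a log2 fold change below 0. The summed CPM of the 20 at 96 h was 80.4% ± 1.90 of the untreated mean, below every other time. With the library set or the antisense index in the fit, 6 and 4 of the 20 passed, all lower, beside 0.299% and 0.112% of all genes called lower.

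**Figure D4:**
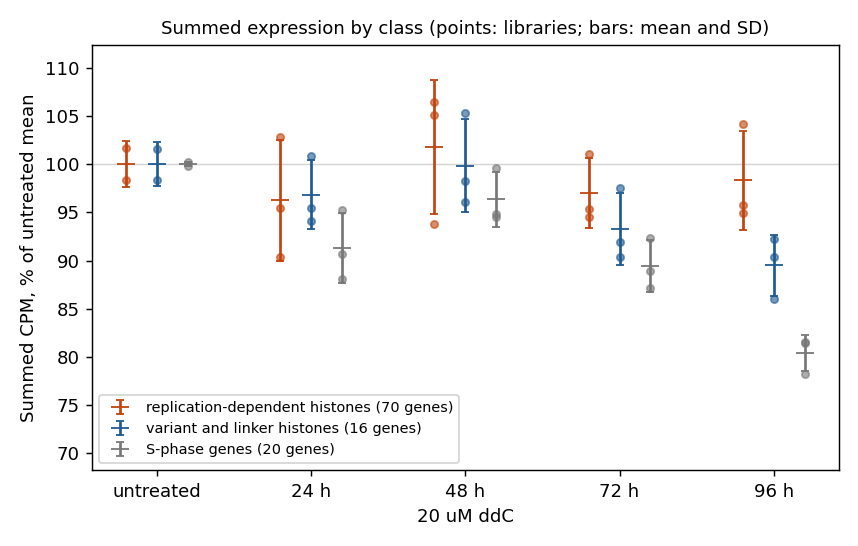
Summed CPM of replication-dependent histone genes (orange), variant and linker histone genes (blue) and S-phase genes (grey), as a percent of the untreated mean (vertical axis not from 0), in untreated cells and after 24 to 96 h of ddC; points are libraries, bars the mean and SD. At 96 h the S-phase genes have a mean of 80.4%, the variant and linker genes 89.5% and the replication-dependent genes 98.4%. The replication-dependent libraries at 96 h run from 94.99% to 104.2%, on both sides of the untreated 98.3% and 101.7%.

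Genes that make and process histone mRNA were lower in part. Of 25 tested, 3 fell at 96 h against untreated cells and 0 rose, beside 2.11% of all genes called lower, with a median log2 fold change of -0.12. SLBP, the stem-loop binding protein, had 70.5, 78.2 and 74.0 CPM at 96 h and 88.8 and 89.0 CPM in untreated cells. The groups did not overlap, and it fell by 0.26 ± 0.07 on the log2 scale (edgeR adjusted p = 0.0255), a call that held in 18 of 24 other analyses but not without either untreated library, 96 h replicate 1 or 96 h replicate 3, nor with the antisense index (adjusted p = 0.417 by edgeR) or the library set (0.180) in the fit. CCNE2, the cyclin E2 gene, whose kinase switches on histone transcription through NPAT, fell by 0.81 ± 0.12, with 10.7, 12.6 and 11.01 CPM at 96 h and 21.6 and 18.5 CPM in untreated cells. E2F1, a transcription factor of the G1/S transition, fell by 0.59 ± 0.09, a call not held with the library set (edgeR adjusted p = 0.0590) or the antisense index (0.108) in the fit. With either, 1 of the 25 passed, CCNE2, which is also on the S-phase list, beside 0.299% and 0.112% of all genes called lower. NPAT itself, the coactivator of the histone clusters, had 28.2, 25.7 and 22.8 CPM at 96 h and 25.6 and 28.5 CPM in untreated cells, which overlap, and a log2 fold change of -0.08 ± 0.11.

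Some of the genes that escort histones and place them on DNA also fell. Of 33 tested, 8 fell at 96 h against untreated cells and 0 rose, beside 2.11% of all genes called lower, with a median log2 fold change of -0.17. They were the CAF-1 subunits CHAF1A (-0.36 ± 0.09) and CHAF1B (-0.41 ± 0.09), the H3-H4 chaperones NASP (-0.33 ± 0.06) and DNAJC9 (-0.31 ± 0.08), MCM2 (-0.54 ± 0.08), also on the S-phase list, MMS22L (-0.31 ± 0.09), and both subunits of the FACT complex, SSRP1 (-0.24 ± 0.06) and SUPT16H (-0.30 ± 0.06). NASP had 151.6, 157.3 and 150.2 CPM at 96 h and 190.4 and 194.6 CPM in untreated cells. All 8 had every 96 h library below every untreated library. Called counts were 5 and 3 without 96 h replicates 1 and 3 (beside 1.11% and 0.973% of all genes called lower), and 4 and 2 without untreated replicates 1 and 2 (0.596% and 0.375%). Under the fits with the library set or the antisense index, 0 of the 33 passed, beside 1.01% and 0.501% of all genes. ASF1B, a chaperone of new H3-H4, had a log2 fold change of -0.17 ± 0.09 (edgeR adjusted p = 0.297). CENPA, the centromeric H3 variant, which the symbols did not bring in, had 32.7, 37.8 and 35.8 CPM at 96 h and 39.9 and 34.3 CPM in untreated cells, and a log2 fold change of -0.07 ± 0.09.

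The libraries looked like fibroblasts, with COL1A1 at 15680 to 22830 CPM. Of 8 fibroblast markers, 5 rose at 96 h against untreated cells (COL1A1, COL1A2, COL3A1, LUM and THY1), beside 3.57% of all genes called higher, and the list summed to 41090 to 44580 CPM at 96 h and 35110 to 35830 CPM in untreated cells. Of 5 epithelial markers, KRT18 and KRT8 rose at 96 h (71.3 to 78.4 CPM for the list at 96 h and 54.7 to 55.5 CPM in untreated cells), while CDH1 had 0 counts and EPCAM at most 0.793 CPM. Endothelial and blood lists held 34.6 to 46.1 and 43.2 to 61.0 CPM, mostly TEK and CD68, with PECAM1, CDH5 and CD3E at 0. MALAT1, a nuclear RNA, ranged from 52.1 to 408.8 CPM, and 12 listed RNAs that lack a poly(A) tail summed to 0.783 to 4.01 CPM, both with overlap between the groups. The part of the nuclear RNA and of the RNAs without a tail was taken up by fits given in the closing section, and that of the marker lists was not tested.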

How the data were processed

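Polyadenylated RNA of 14 IMR90 libraries was sequenced after a stranded mRNA preparation, per the labels' protocols. STAR 2.5.3a, HOMER and hg19 are named in the submitters' processing notes; the strand setting and the handling of reads with several matches are not given in the sources used here. The values are the authors' deposited raw counts, beside a listed length. VIM-AS1 held 0.155% as many counts as VIM on the opposite strand, and counts were read as strand-specific. Replicates are biological per the labels.

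Genes were tested with edgeR 4.0.16 (R 4.3.3): TMM scaling, filterByExpr (minimum count 10, minimum total 15) and a robust, two-sided quasi-likelihood test with all 14 libraries fitted together by group. Benjamini-Hochberg adjustment ran over 13371 genes, and genes under 0.05 were called. The SE is the log2 fold change divided by the square root of F. Fits were tested on simulated data. Alternatives used DESeq2 1.42.0, limma-voom (limma 3.58.1), other scaling, no filter, a replicate block, 2 groups alone, covariates and left-out libraries. Intervals (95%) are confidence intervals of the change between groups, and allow only for the spread between these libraries. Stem-loops were read from GENCODE transcripts and promoters from RefSeq, both on GRCh38, and no coordinates were moved between builds.

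The histone genes, the lists and the antisense index were chosen with earlier results of these data known. Histone genes are given per library if called in any comparison or among the 6 of their class with the highest mean CPM. List genes are named if called, and SLBP, NPAT, CENPA and ASF1B in any case. H1FX and the rarer variants are outside this rule and were named with their values known.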

Additional observations from a re-analysis of the deposited data

Results flagged for a closer look

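At 96 h against 24 h of ddC, a direct test between times, 1 of 25 genes of the histone mRNA list and 2 of 33 of the chaperone list differed, beside 3.2% of all genes called. These counts lie near that share, and an excess was not tested. CCNE2 had 10.7, 12.6 and 11.01 CPM at 96 h and 17.0, 16.3 and 16.5 CPM at 24 h, a log2 fold change of -0.54 ± 0.11 (edgeR adjusted p = 0.00575). MCM2, the helicase subunit that also binds H3-H4, had 59.0, 56.6 and 64.4 CPM at 96 h and 79.0, 79.3 and 72.4 CPM at 24 h, a log2 fold change of -0.36 ± 0.07 (edgeR adjusted p = 0.0063). NASP had 151.6, 157.3 and 150.2 CPM at 96 h and 199.9, 182.2 and 173.9 CPM at 24 h, a log2 fold change of -0.28 ± 0.06 (edgeR adjusted p = 0.00846). In all 3 genes the 96 h libraries lay below the 24 h libraries, and their calls held in 22, 22 and 19 of 24 other analyses. None held with the library set (edgeR adjusted p of 0.0565 in CCNE2, 0.405 in MCM2 and 0.212 in NASP) or the antisense index (0.304, 0.665 and 0.341) in the fit. All 96 h libraries are in the higher set and all 24 h libraries in the lower. Neither class of histone genes had a gene called in this comparison.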

How the results depend on the processing

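Over 53 results, 1188 of 1311 values under other analyses were counted as unchanged. For single genes this meant the same direction and the same side of the threshold. For numbers of called genes it meant an equal or close number. For class medians it meant a shift smaller than the spread between libraries of a group, whatever the sign. Called counts at 24 and 48 h had little room to move, with 0 and 1 of 13371 genes called in the main fit. The total includes these counts and is no measure of how firm the results are. Under all of these analyses, 0 replication-dependent genes were called. Variant and linker genes called at 96 h against untreated were 2 with DESeq2, 2 with the replicate block, 4 with only the compared groups, 4 with the nuclear RNA covariate, 2 with the non-polyadenylated RNA covariate, 0 with the antisense index and 1 to 2 without single libraries (2 without 24 h replicate 2 or 3, 48 h replicate 1 or 2, or 72 h replicate 3). The calls added to H1F0 were H3F3B in each case, with H2AFZ and H2AFV where 4 were called. The share of all genes called at 96 h moved as well. It was 5.68% in the main fit, 6.8% with DESeq2, 5.14% with the replicate block and 12.6% with only the compared groups. It was 13.9% with the nuclear RNA covariate, 8.63% with the non-polyadenylated RNA covariate and 0.501% with the antisense index. The histone counts cannot be read apart from these shares. At 72 h the count was 0 with only the compared groups, the library set or the antisense index, and 0 to 1 without single libraries. At 96 h against 24 h it was 4 with the nuclear RNA covariate, 2 with the non-polyadenylated RNA covariate and 0 to 1 without single libraries (1 without 72 h replicate 3). For 72 h, and for 96 h against 24 h, the share of all genes called under these fits is not given.

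H1F0 at 72 h missed the threshold at a log2 fold change of -0.38 with only the compared groups (adjusted p = 0.0858 by edgeR), -0.40 with the library set, and -0.36 with the antisense index; over left-out libraries it ranged from -0.42 to -0.34 and missed the threshold in 4 of 14. At 96 h it missed it at -0.37 with the antisense index. The median of replication-dependent genes at 48 h was 0.11 with DESeq2, 0.12 with no filter and -0.12 to 0.0739 without single libraries. At 72 h it was 0.0465 with the antisense index. At 96 h it was 0.11 with that index and -0.16 to 0.0914 without single libraries. At 96 h over 24 h it was 0.12 with the library set and 0.22 with the antisense index. The variant median at 48 h was -0.0693 to 0.0193 without single libraries. With the antisense index, changes at 96 h reversed to 0.11 in HIST1H2BK, 0.15 in HIST1H1C, 0.19 in H2AFX and 0.0396 in ASF1B. H2AFX also reversed to 0.0455 with the library set, 0.0048 with the non-polyadenylated RNA covariate and from -0.12 to 0.0807 without single libraries. Left-out libraries spanned -0.0103 to 0.25 in HIST2H2BE, -0.0665 to 0.18 in HIST1H2BD, -0.16 to 0.00067 in NPAT and -0.17 to 0.0451 in CENPA. With only the compared groups, 9 histone mRNA genes and 14 chaperone genes were called lower at 96 h, beside 5.7% of all genes, and with the nuclear RNA covariate 8 and 14, beside 6.57%. The cause was not tested in these cases.

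Same-numbered libraries did not deviate together throughout (r from -0.38 to 0.63 over 26 pairs, 6 of 14 libraries closest to their own number). Replicates 2 of untreated, 24, 48 and 72 h correlated at 0.31 to 0.49 with each other and at -0.35 to -0.15 with that of 96 h. With the replicate block, H1F0 at 96 h was -0.39 and H3F3B passed at an adjusted p of 0.0399 by edgeR. The library set and antisense index were added after seeing the data. Without an untreated library, the other is assumed to vary like the remaining groups. Low counts left 61 of 70 replication-dependent genes untested.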
